A study of Rattus norvegicus with 24 samples.

Results

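The step from meiosis to the haploid cell was followed in Brown Norway rats aged 4 months, as the difference between round spermatids and pachytene spermatocytes of the same rats. The 12 arrays whose titles begin with BNY were taken, 6 of pachytene spermatocytes and 6 of round spermatids, out of 24 Affymetrix rat arrays in the series; the other 12 are of the same fractions from rats aged 18 months. All animals were of 1 strain, the labels name no treatment, and both fractions of a rat carry its number (1, 2, 3, 10, 11 and 13). The testis was digested by collagenase and trypsin, and its germ cells were parted on a STAPUT gradient, which sorts cells by sedimentation, so each fraction is an enriched and not a pure population. RNA of each fraction was labelled with biotin and hybridised, and 31042 probe sets were tested. Values are log2 signals, arrays give no molecule counts, and precision is limited by having 6 rats. P-values measure the spread between these samples.

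In the seminiferous tubule, diploid spermatocytes spend a long prophase pairing and recombining their chromosomes. They then pass through both meiotic divisions with little delay and become round spermatids. The haploid cell builds the acrosome, a secretory granule that later helps the sperm to enter the egg, and grows the tail. It also prepares to replace its histones with transition proteins and protamines. Many transcripts are made in advance and stored, because transcription stops when the nucleus condenses. The sex chromosomes are silenced as a body in pachytene spermatocytes, and part of that silencing lasts into the spermatid.

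The fractions were checked against markers. The mean level of 15 measured pachytene markers lay at 11.84 to 12.15 in the 6 pachytene fractions and at 10.90 to 11.12 in the 6 round spermatid fractions. By the call rule given below, 6 of the 14 bright ones were lower in round spermatids and 1, Ccna1, was higher. The 6 were Mybl1, Tdrd1, Piwil2, Sycp2, Sycp3 and Mlh3, which return in the gene groups below. The mean of 10 round spermatid markers lay at 12.80 to 12.94 in the round spermatid fractions. In the pachytene fractions it was 10.96 in rat 2, 11.07 in rat 3 and 11.25 in rat 13, but 11.57 to 12.30 in rats 1, 10 and 11, with rat 1 highest. Elongating spermatid markers moved with them, from 12.59 to 13.69 in pachytene fractions and from 13.88 to 13.97 in round spermatid fractions. The pachytene array of rat 1 also had the lowest mean correlation with the others of its kind (0.974). Markers of spermatids were thus high in some pachytene fractions, and the part of this in the size of the differences below was not tested; counts without rats 1, 10 and 11 are given beside the main ones.

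**Figure D1:**
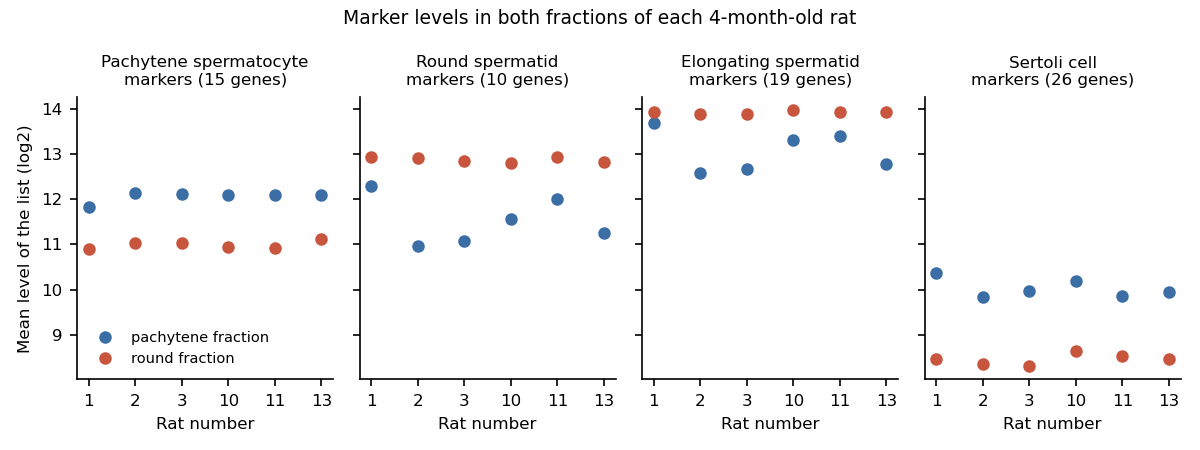
Mean log2 level of 4 marker lists (vertical axis) in the pachytene and round spermatid fractions of each rat; each point is 1 array. Round spermatid markers lay between 10.96 and 12.30 in pachytene fractions and between 12.80 and 12.94 in round spermatid fractions, with rats 1, 10 and 11 highest in the former, and Sertoli cell markers lay between 9.84 and 10.36 in pachytene fractions and between 8.30 and 8.64 in round spermatid fractions.

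Low signals are not comparable between the fractions as deposited: probe sets of an absent control averaged 4.38 in the pachytene and 6.77 in the round spermatid arrays. A constant of 80 was therefore added to the linear pachytene values, chosen on 45 control probe sets, and the 12 arrays were quantile normalized. The mean round minus pachytene difference of these controls was 0.49 (SD 0.74) as deposited and -0.06 (SD 0.21) after the offset. After quantile normalization it was 0.25 (SD 0.35), so on the main scale the controls lay higher in round spermatids. A probe set was called when limma, with the rat as a block, gave a Benjamini-Hochberg adjusted p under 0.05, the difference was at least 2-fold and the mean level in the higher fraction was at least 9 (bright). A lower level under 7.5 was treated as the floor, and the fold is then given as "at least". Fewer cells of a type and less RNA per cell cannot be told apart in such fractions.

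Of 31042 probe sets, 1899 were called higher (6.12%) and 1865 lower (6.01%) in round spermatids than in pachytene spermatocytes. By adjusted p alone 23046 (74.2%) passed, so size and brightness set the call. The balance of the directions depended on the scaling. With the offset and the deposited scale 872 were higher and 4010 lower, and with each array centred on its median 1124 and 3363. Centring on 18 hybridization control probe sets gave 834 and 4142, and quantile normalization with no offset gave 1944 and 1883. The median probe set at a level of 9 to 10 moved by 0.77 on the log2 scale between the main and the deposited scale, and at 12 to 13 by 0.06. Under all 5 scalings 829 probe sets (2.67%) were called higher and 1767 (5.69%) lower, and the genes described below are among these unless another scaling is named. How many transcripts rose or fell in all therefore has no single answer in these arrays.

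Of the 3764 called probe sets, 3754 differed with the same sign in all 6 rats, and in 3703 the lowest array of the higher fraction lay above the highest array of the other. Calls were chosen by adjusted p and size in these same arrays, so this agreement is no separate support for them. The shares over all probe sets were not counted. Without rats 1, 10 and 11 the counts were 1986 higher and 2052 lower, and 3541 of the 3764 calls were made again in the same direction. At least 4-fold differences were called in 261 probe sets towards round spermatids and in 418 towards pachytene spermatocytes, and without rats 1, 10 and 11 in 622 and 490. At least 8-fold differences were called in 0 and in 62, and without those rats in 20 and 74. The size of the rises thus differed with and without these 3 rats. They were singled out because spermatid markers were high in their pachytene fractions, so larger rises without them follow in part from that choice. The median difference of called probe sets was 1.49 in the higher and -1.53 in the lower direction. By rat, the median over the probe sets called higher was 1.06 in rat 1 and 1.26 in rat 11, and lay between 1.60 and 1.79 in the others. The median over those called lower spanned -1.67 to -1.43.

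Taking for each gene the probe set with the highest level gave 14217 genes, 6534 of them bright. Of all genes 1381 (9.71%) were called higher and 1221 (8.59%) lower, and under all 5 scalings 665 (4.68%) and 1165 (8.19%). Among bright genes these are 21.1% and 18.7%, and under all 5 scalings 10.2% and 17.8%; the counts of the gene groups below stand beside these shares. The median difference of bright genes was 0.04.

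**Figure D2:**
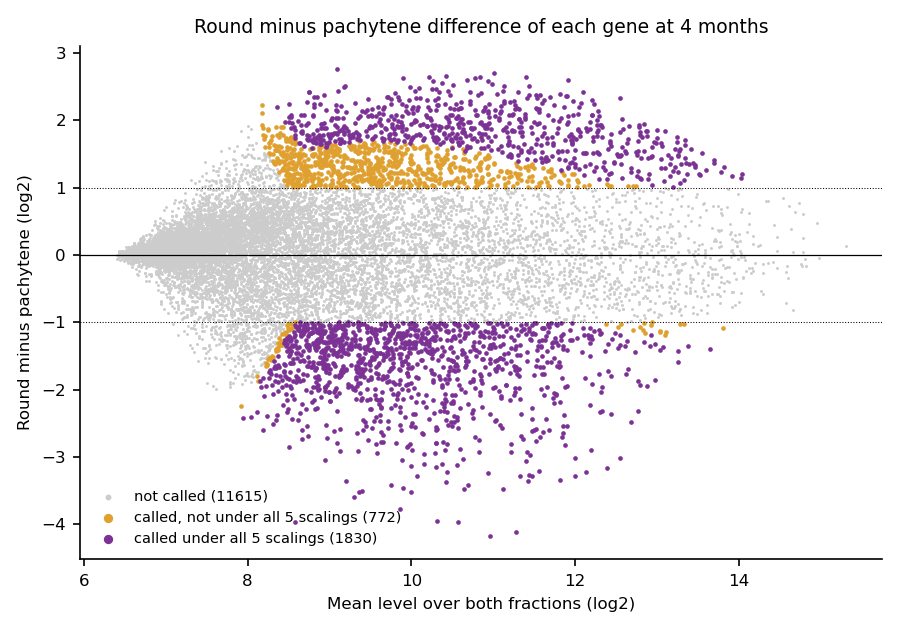
Round minus pachytene difference (log2, vertical axis) of 14217 genes against their mean level over both fractions (log2, horizontal axis); each point is 1 gene, with the 1830 genes called under all 5 scalings, the 772 called under the main scaling but not under all and the 11615 not called in separate colours. Genes called under the main scaling but not under all lie mostly above 1.

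The 15 largest rises in round spermatids had varied known roles. Lsp1, an actin-binding protein known from leukocytes, ranged from 7.35 to 8.39 (median 7.60) in pachytene spermatocytes and 9.95 to 11.28 (median 10.38) in round spermatids. All 6 round spermatid arrays lay above all 6 pachytene arrays, and the difference was 2.76 (SE 0.18, 6.79-fold; limma, adjusted p = 9.15e-06). Fscn3, the testis form of the actin-bundling protein fascin, rose 6.04-fold (log2 difference 2.60 ± 0.40, SE). Klc3, a kinesin light chain that binds the outer dense fibres of the tail, rose 5.72-fold. Mlph, which links Rab27 vesicles to myosin, rose 5.83-fold. Rai14, a protein of actin bundles, rose 5.87-fold, and Ica1, a membrane-bending protein of the secretory pathway, 5.72-fold.

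Enzymes and signalling proteins stood beside them. Lipe, the hormone-sensitive lipase, which mice need for sperm production, ranged from 8.68 to 9.88 (median 8.98) in pachytene spermatocytes and 11.44 to 12.28 (median 11.68) in round spermatids. The fractions did not overlap, and the rise was 6.33-fold (log2 difference 2.66 ± 0.17, SE; limma, adjusted p = 8.56e-06). Prkcd, protein kinase C delta, rose 5.97-fold, and Gstcd, a protein with a glutathione transferase domain, 6.05-fold. Adam4, a membrane protein of the ADAM family, rose 6.26-fold. Ccsap, a protein of centrioles and spindle microtubules, rose 6.48-fold. Tex46, Cimap1b, C13h1orf21 and Atosb completed the 15 largest rises, and all 15 lay between 5.72-fold and 6.79-fold over 6 rats. Without rats 1, 10 and 11 their log2 differences were 2.85 to 3.45, with Fscn3 and Tex46 (3.34) the largest, and in rat 1 they were 0.51 to 1.88. Of 262 named genes that were called, 38 moved by over 1.5 times without those 3 rats, and in all 38 the difference was then larger. For rises this follows in part from the choice of those rats by their spermatid markers.

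Over all 6 rats the largest falls exceeded 8-fold. Gmcl1, the germ cell-less protein of the nuclear envelope, ranged from 12.35 to 13.30 (median 13.21) in pachytene spermatocytes and 8.54 to 9.34 (median 8.70) in round spermatids. This is an 18.0-fold fall with no overlap (log2 difference -4.17 ± 0.13, SE; limma, adjusted p = 1.15e-06). The value is that of 1 probe set: of 2 others for Gmcl1, the log2 difference was -0.73 ± 0.17 (SE) in one and 0.36 ± 0.04 in the other, and neither was called. Sprtn, a protease that removes proteins cross-linked to DNA, fell 17.4-fold, from 13.34 to 9.22. Pbk, a kinase of dividing cells, fell 15.5-fold, and B3galnt1, a glycosyltransferase of globosides, 15.6-fold.

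Ccne2, cyclin E2, a partner of Cdk2, fell 13.7-fold, from 11.75 to 7.97. Its other probe set lay near the floor in both fractions (6.86 and 7.02). Tgfa, a growth factor of the EGF family, fell at least 8.31-fold, to below the floor of 7.5 in round spermatids, and its second probe set fell at least 3.33-fold. Phf2, a histone demethylase, fell at least 12.1-fold (log2 difference -3.60, and -4.27 without rats 1, 10 and 11). Cul4a, a ubiquitin ligase scaffold that male meiosis needs, fell 11.5-fold, and Hace1, a ubiquitin ligase, 11.5-fold. Usp32, a deubiquitinase, had a log2 difference of -3.47 ± 0.09 (SE). Spidr, a scaffold of recombination repair, fell 11.4-fold, and Spcs3, a signal peptidase subunit, 11.2-fold. Myef2, C2h4orf46 and C19h16orf87 closed the 15 largest falls, which ended at 10.6-fold. Of these 30 genes all were called under all 5 scalings.

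**Figure D3:**
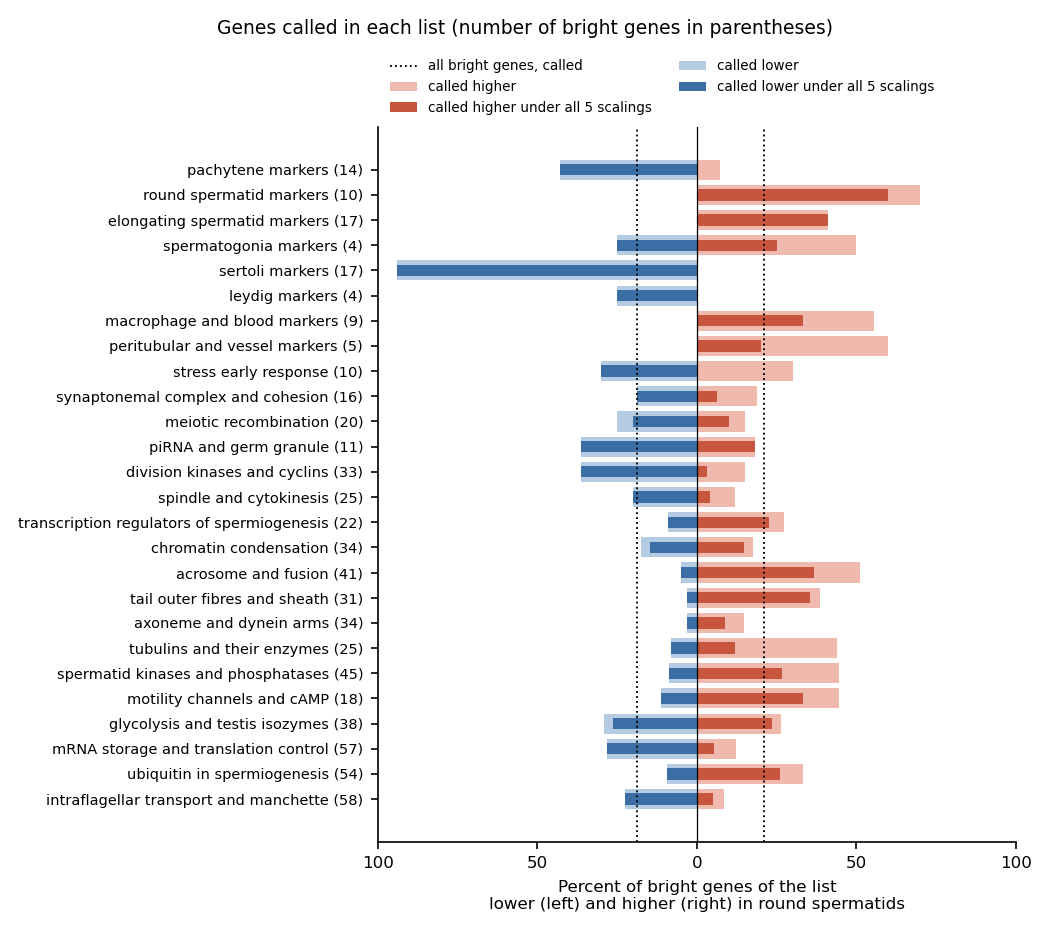
Percent of the bright genes of each list (horizontal axis) called lower (left, blue) and higher (right, red) in round spermatids; pale bars are calls under the main scaling and dark bars calls under all 5 scalings, with the number of bright genes in parentheses. Dotted lines mark all bright genes, 18.7% lower and 21.1% higher. Of the acrosome list 21 of 41 bright genes were called higher, and of the Sertoli cell list 16 of 17 were called lower.

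Genes of meiotic prophase went both ways. Of 16 bright genes of the synaptonemal complex and cohesion, 3 fell and 3 rose, 3 and 1 of them under all 5 scalings, with a median of 0.07 that turned below 0 on the deposited scale (-0.27); 3 of 16 is close to the shares of all bright genes, 18.7% lower and 21.1% higher. Sycp2 and Sycp3, proteins of the axial elements along which chromosomes pair, fell 4.24-fold and 3.03-fold. Sycp3 ranged from 13.86 to 14.15 (median 14.06) in pachytene spermatocytes and 12.10 to 12.75 (median 12.48) in round spermatids, so the transcript was still bright in the haploid fraction. Pds5a and Pds5b, paired regulators of cohesin, went opposite ways: Pds5a fell 2.59-fold (log2 difference -1.37 ± 0.13, SE) and Pds5b rose 3.34-fold (1.74 ± 0.07). Syce3, a central element protein, and Smc1a, a cohesin subunit, were called higher under the main scaling but not under all 5.

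Of 20 bright recombination genes, 5 fell and 3 rose, 4 and 2 of them under all 5 scalings (median -0.62). Such counts in 20 genes lie near the shares of all bright genes, 18.7% lower and 21.1% higher. Exo1, a nuclease of repair, fell 3.54-fold, Topbp1, a checkpoint scaffold, 2.74-fold, Mlh3, a crossover factor, 2.54-fold and H2ax, the histone phosphorylated at breaks and on the sex body, 2.47-fold. Tex15, needed for meiotic recombination in mice, went the other way with 3.60-fold, and so did Mus81, a nuclease of branched DNA, with 3.37-fold. The piRNA pathway guards the germ line against transposons. In the list of piRNA and germ granule genes 4 of 11 bright members fell and 2 rose, each under all 5 scalings. Tdrd1, a scaffold of the germ granule, ranged from 13.10 to 13.65 (median 13.58) in pachytene spermatocytes and 10.16 to 10.85 (median 10.46) in round spermatids. It fell 8.06-fold with no overlap (limma, adjusted p = 1.07e-06). Piwil2, a PIWI protein, fell 5.88-fold, Prmt5, which methylates PIWI proteins, 4.59-fold and Tdrd12 2.56-fold. Gtsf1l, related to a piRNA cofactor, rose 2.55-fold. Rangap1, the activator of the Ran GTPase, also stood on the list and rose 2.66-fold, and its rise is not read as one of the piRNA pathway.

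Kinases, cyclins and checkpoint proteins of the meiotic divisions fell more often than they rose. Of 33 bright members 12 fell, all 12 under all 5 scalings, and 5 rose, of which only Ccnb1 did so under all 5 (median -0.38; without rats 1, 10 and 11, 12 fell and 5 rose). Cdc20, the activator of the anaphase-promoting complex, ranged from 10.95 to 12.08 (median 11.83) in pachytene spermatocytes and 9.30 to 9.59 (median 9.43) in round spermatids. The 2 fractions did not overlap, and the fall was 4.86-fold (log2 difference -2.28 ± 0.12, SE; limma, adjusted p = 3.58e-06). Cks2, a Cdk-binding subunit that mice need to leave the first meiotic metaphase, fell 7.48-fold, and Cdk2 6.23-fold. Aurkc, the Aurora kinase of meiosis, fell 4.08-fold, Plk4, which starts centriole duplication, 3.07-fold and Bub1b, of the spindle checkpoint, 3.01-fold.

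Ccnb1, cyclin B1, rose 2.60-fold, from 11.27 to 12.65. Ccna1, the cyclin A of male meiosis, Ccne1, Plk1 and Fzr1 were called higher as well, with log2 differences of 1.25, 1.48, 1.35 and 1.27, but not under all 5 scalings. Cyclin E1 and cyclin E2 thus had opposite signs, the first not under all 5 scalings. Of 25 bright genes of the spindle and of cytokinesis, 5 fell, each under all 5 scalings, and 3 rose, 1 of them under all 5 (median -0.70). Their falls are near the 18.7% of all bright genes, and their rises are below the 21.1%. Mis18a, which licenses centromeres, fell 5.47-fold, Smc4, a condensin subunit, 2.56-fold, Ckap5, a microtubule polymerase, 2.51-fold, Racgap1 2.28-fold and Prc1, of the midzone of the spindle, 2.25-fold. Kif2c, a kinesin that takes microtubules apart, rose 4.66-fold. Hmmr and Kif23 were higher by 1.44 and 1.08 under the main scaling.

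Promoters of division genes are known to carry a short element, the cell cycle genes homology region (CHR), through which they are switched together in dividing cells. The sequences below, from RefSeq on assembly GRCr8, are the 250 bases before the gene start and show the element in 3 genes that fell and in 1 that was higher; capitals mark TTTGAA or its reverse complement.
Cdc20, chr5:137255800-137256049, minus strand: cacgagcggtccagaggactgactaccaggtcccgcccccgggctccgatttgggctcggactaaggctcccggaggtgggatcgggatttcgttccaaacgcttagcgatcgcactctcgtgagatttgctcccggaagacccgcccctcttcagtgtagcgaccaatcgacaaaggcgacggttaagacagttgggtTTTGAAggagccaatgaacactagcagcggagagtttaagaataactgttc
Cks2, chr17:13727520-13727769, minus strand: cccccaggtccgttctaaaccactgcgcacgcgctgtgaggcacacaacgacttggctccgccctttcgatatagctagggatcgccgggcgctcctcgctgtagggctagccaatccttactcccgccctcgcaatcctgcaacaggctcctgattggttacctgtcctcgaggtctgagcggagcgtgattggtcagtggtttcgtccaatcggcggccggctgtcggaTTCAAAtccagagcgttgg
Prc1, chr1:143659231-143659480, plus strand: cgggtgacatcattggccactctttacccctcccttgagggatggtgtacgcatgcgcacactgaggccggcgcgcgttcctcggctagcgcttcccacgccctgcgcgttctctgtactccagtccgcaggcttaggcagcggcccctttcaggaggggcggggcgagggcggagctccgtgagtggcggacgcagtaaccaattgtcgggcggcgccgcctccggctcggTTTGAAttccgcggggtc
Hmmr, chr10:25665216-25665465, minus strand: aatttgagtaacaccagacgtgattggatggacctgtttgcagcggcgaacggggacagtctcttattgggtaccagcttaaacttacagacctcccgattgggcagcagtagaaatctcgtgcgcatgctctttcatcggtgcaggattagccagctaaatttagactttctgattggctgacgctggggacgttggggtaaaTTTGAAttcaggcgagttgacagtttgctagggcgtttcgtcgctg
The element begins 51, 19, 18 and 46 bases before the start in Cdc20, Cks2, Prc1 and Hmmr.

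Of 64 genes on the 2 division lists with a promoter entry, 27 (42.2%) held TTTGAA on either strand in these 250 bases, against 16% of all 27457 promoters and 10.3% of bright genes. The element was in 7 of 14 division genes that were called lower (Cdc20, Cks2, Pttg1, Cdca8, Prc1, Smc4 and Ckap5), in 2 of 8 called higher (Kif23 and Hmmr) and in 18 of 42 not called. Over all genes it was in 8.51% of promoters of those called lower and in 10.5% of those called higher. The element was thus present in members of either direction. Pttg1 and Cdca8 are named for the element alone, after their values were seen, as the motifs were, and a match is no evidence of binding.

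Regulators of transcription went both ways. Of 22 bright members 6 rose and 2 fell, 5 and 2 of them under all 5 scalings; the median of 0.18 turned to -0.18 on the deposited scale. Mybl1, the A-MYB factor that switches on pachytene genes, ranged from 10.96 to 12.14 (median 11.90) in pachytene spermatocytes and 7.93 to 9.11 (median 8.46) in round spermatids. It fell 9.72-fold without overlap (log2 difference -3.28 ± 0.11, SE; limma, adjusted p = 1.22e-06). Atf1, a factor of the CREB family, fell 3.29-fold, while Creb1 rose 3.46-fold. Sox6, a HMG-box factor, rose 3.68-fold, Rfx1, of the family that binds X-boxes, 3.39-fold, Paxip1, a chromatin adaptor of histone methylation, 3.33-fold and Hsf2, a heat shock factor of the testis, 2.95-fold. Rfx1 had a log2 difference of 1.76, and of 2.38 without rats 1, 10 and 11. Crem, the cAMP-responsive switch of spermatid genes, is named here after its values were seen, because its 6 probe sets disagreed. The brightest had a difference of 0.90 (SE 0.10) and the next of -0.87 (SE 0.12), and neither was called. Of the 6 only 1 was called (1.27, SE 0.04), not under all 5 scalings.

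Letters bound by such factors were counted in the same 250 bases on both strands. The full cAMP response element TGACGTCA was in 3.28% of promoters of genes called higher, 3.03% of those called lower, 3.64% of bright genes and 1.70% of all promoters. The MYB letters GGCAGTT were in 3.71%, 3.52%, 3.46% and 3.33%. The letters GTTGCCATG, from the X-box that Rfx factors bind, were in 8 of 1159 promoters of genes called higher and in 0 of 1022 called lower, against 0.574% of bright genes and 0.499% of all promoters. The 8 (0.690% of 1159) are Glul, Prm3, Deup1, Rnf182, Sik3, Xlr5c, Ccdc184 and Pwwp4, the first 4 called under all 5 scalings; Deup1, Rnf182, Sik3, Xlr5c, Ccdc184 and Pwwp4 are named because the count is small. Tnp1, a transition protein, and Prm3, a protamine-like protein, are shown with the response element and the X-box letters in capitals, since both encode proteins of spermatid differentiation.
Tnp1, chr9:82044279-82044528, minus strand: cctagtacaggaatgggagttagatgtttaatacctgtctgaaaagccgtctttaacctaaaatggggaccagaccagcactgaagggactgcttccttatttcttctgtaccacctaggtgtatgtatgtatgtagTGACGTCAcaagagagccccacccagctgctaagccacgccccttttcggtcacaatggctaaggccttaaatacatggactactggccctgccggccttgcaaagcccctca
Prm3, chr10:5384144-5384393, plus strand: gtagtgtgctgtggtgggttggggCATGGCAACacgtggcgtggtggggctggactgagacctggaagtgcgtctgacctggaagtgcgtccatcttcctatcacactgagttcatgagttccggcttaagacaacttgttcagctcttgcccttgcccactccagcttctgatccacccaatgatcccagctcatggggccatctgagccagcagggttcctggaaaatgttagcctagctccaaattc

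Genes for the condensing nucleus went both ways. Of 34 bright members 6 rose and 6 fell, 5 each under all 5 scalings, with a median of 0.23 that was -0.03 when centred on hybridization controls. A count of 6 in 34 is close to the shares of all bright genes, 21.1% higher and 18.7% lower. Prm2, a protamine, ranged from 11.44 to 13.77 (median 12.33) in pachytene spermatocytes and 13.95 to 14.37 (median 14.09) in round spermatids. It rose 3.37-fold (log2 difference 1.75 ± 0.31, SE; limma, adjusted p = 0.00150), by 2.47 without rats 1, 10 and 11, and the pachytene level was 11.44 to 11.77 in rats 2, 3 and 13 but 12.89 to 13.77 in rats 1, 10 and 11. Prm3 rose 2.77-fold, Cdyl, an acetylating chromodomain protein, 3.16-fold, Spag4, a SUN protein of the nuclear envelope, 3.37-fold and Ube2a, a ubiquitin conjugase acting on histones, 3.62-fold. Prm3, Cdyl and Spag4 had log2 differences of 2.11, 2.28 and 2.43 without rats 1, 10 and 11.

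The transition proteins and protamine 1 stood at the top of the scale in both fractions. Prm1 lay at 15.24 ± 0.14 in pachytene spermatocytes and 15.37 ± 0.00 in round spermatids (SD, n = 6) and Tnp1 at 14.72 ± 0.33 in pachytene spermatocytes and 15.20 ± 0.00 in round spermatids. Each took 1 and the same value in all 6 round spermatid arrays, because quantile normalization gives each rank 1 value, so a rise within the top ranks cannot be read. On the deposited scale with the offset the differences were 0.30 for Prm1 and 0.55 for Tnp1. Tnp2 (0.77 ± 0.14, SE) and Hils1 (0.81 ± 0.15), a spermatid linker histone, were not called either. Parg, which removes poly(ADP-ribose), fell 6.06-fold, and Parp2 and Parp1, which make it, 3.37-fold and 2.07-fold. Top2b, a topoisomerase, fell 2.72-fold, and H2az1, a histone variant, was called lower (-1.09) but not under all 5 scalings. Hat1, a histone acetyltransferase, was called higher (1.33), not under all 5 scalings. Ipo4, an importin that carries transition proteins in mice, stayed within 0.06 to 0.20 (95% interval of the log2 difference).

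Genes of the acrosome and of fusion with the egg rose more often than they fell. Of 41 bright members 21 rose and 2 fell, 15 and 2 of them under all 5 scalings (median 1.01; without rats 1, 10 and 11, 22 rose and 2 fell). By rat, the list's median difference was 0.52 in rat 1 and 0.72 in rat 11, and lay between 0.95 and 1.37 in the others. Acr, the protease acrosin, ranged from 10.10 to 10.90 (median 10.25) in pachytene spermatocytes and 11.94 to 12.12 (median 11.99) in round spermatids. All round spermatid arrays were above all pachytene arrays, with a rise of 3.14-fold (log2 difference 1.65 ± 0.10, SE; limma, adjusted p = 7.96e-06). Ace, whose testis form is a spermatid enzyme, ranged from 9.10 to 11.29 (median 9.68) in pachytene spermatocytes and 12.14 to 12.72 (median 12.39) in round spermatids, and rose 5.66-fold (log2 difference 2.50, and 3.09 without rats 1, 10 and 11).

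Cd46, a complement regulator of the inner acrosomal membrane, rose 4.58-fold (log2 difference 2.20 ± 0.29, SE). Prss37, a protease-like protein of sperm, rose 3.81-fold, Spaca9 3.82-fold, Spaca6, a sperm protein needed for fusion, 3.33-fold, Adam6 3.75-fold, and Spam1, the sperm hyaluronidase, 2.99-fold. Prss37, Spaca9 and Spam1 had log2 differences of 2.68, 2.57 and 2.26 without rats 1, 10 and 11. The members that fell were Tex101, a chaperone-like surface protein of germ cells that spermatocytes also carry, with 2.82-fold, and Gopc, a Golgi protein that acrosome formation needs in mice, with 2.62-fold. Gopc lay at 9.67 ± 0.29 in pachytene spermatocytes and 8.28 ± 0.21 in round spermatids (SD, n = 6), and the 2 fractions did not overlap.

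Structural genes of the tail rose more often than they fell. Of the transport machinery that builds it 13 of 58 bright genes fell, close to the 18.7% of all bright genes. The difference between these lists was not tested. Of 31 bright genes of the outer dense fibres and the fibrous sheath, 12 rose and 1 fell, 11 and 1 of them under all 5 scalings (median 0.72). Akap4, the main protein of the fibrous sheath, ranged from 11.98 to 13.79 (median 12.71) in pachytene spermatocytes and 14.02 to 14.24 (median 14.12) in round spermatids. It rose 2.56-fold (log2 difference 1.36 ± 0.24, SE); the pachytene array of rat 1 stood at 13.79 beside 14.14 in its round spermatid array, and that of rat 2 at 11.98 beside 14.02. Akap1, an anchor of protein kinase A at mitochondria, rose 5.12-fold, Spatc1, a centrosomal protein of the testis, 4.95-fold, Tekt5, a tektin, 4.25-fold and Septin4, of the ring between the tail pieces, had a log2 difference of 2.07 ± 0.27 (SE). Odf2l fell 2.66-fold. Akap1 and Tekt5 had log2 differences of 3.08 and 2.71 without rats 1, 10 and 11.

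For the axoneme, the microtubule core of the tail, 5 of 34 bright genes rose and 1 fell, 3 and 1 of them under all 5 scalings, and the median of 0.21 turned to -0.23 on the deposited scale. Efhc2, a microtubule inner protein, rose 4.06-fold, Rsph3, of the radial spokes, 3.39-fold and Dynll2, a dynein light chain, 2.30-fold. Zmynd10, which helps to assemble dynein arms in the cytoplasm, fell 4.00-fold, from 12.59 to 10.59. Of 25 bright tubulins and tubulin enzymes 11 rose and 2 fell, but only 3 rises held under all 5 scalings. Those were Atat1, the acetyltransferase of tubulin, with 4.39-fold, Ttll7, which adds glutamate chains, with 3.71-fold, and Tuba4a with 2.46-fold (log2 difference 1.30, -0.02 in rat 1 and 1.98 without rats 1, 10 and 11). Stmn1, which takes up free tubulin, fell 4.96-fold, and Mapre1, the plus-end protein EB1, 2.72-fold.

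Of 58 bright genes of intraflagellar transport, its cargo adaptors and the manchette, 13 fell, each under all 5 scalings, and 5 rose, 3 of them under all 5 (median -0.20). The falls are near the shares of all bright genes, 18.7% and, under all 5 scalings, 17.8%. The rises are below the shares of 21.1% and 10.2%. Kif5b, a kinesin heavy chain, fell 5.75-fold and Klc3, a light chain, rose 5.72-fold. The pachytene level of Kif5b was 11.67 in rat 1 and 11.52 in rat 10, and 10.79 to 10.96 in the others. Sertoli cell markers were also highest in those fractions, and the part of other cells in its fall was not tested. Ttc8, Bbs1 and Bbs7, subunits of the BBSome that moves membrane proteins in cilia, fell at least 4.82-fold, 3.16-fold and 3.01-fold, and Lztfl1, which regulates the BBSome, 2.54-fold. Cep70, of centrosomes, fell 4.77-fold, and Ift70a1, of the transport train, 2.95-fold. Iqcb1, of the ciliary base, had a log2 difference of -1.81 ± 0.10 (SE). Kifap3, the cargo subunit of kinesin-2, rose 2.89-fold and Poc1b, a centriole protein, 3.79-fold.

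Kinases and phosphatases of spermatids rose in 20 of 45 bright members and fell in 4 (12 and 4 under all 5 scalings; median 0.80). Hipk4, a kinase that shapes the sperm head, ranged from 8.33 to 9.90 (median 8.82) in pachytene spermatocytes and 11.37 to 11.64 (median 11.46) in round spermatids. It rose 5.50-fold with no overlap (log2 difference 2.46 ± 0.24, SE). Prkar2a, a regulatory subunit of protein kinase A held in the tail, rose 5.36-fold, Pim1 5.05-fold, Tsks, a substrate of the testis-specific kinases, 4.39-fold and Tssk2, one of those kinases, 2.97-fold. Gsk3b, a kinase of sperm motility, rose 3.87-fold, Dusp13b, a testis phosphatase, 3.68-fold and Mak, a kinase of cilia, 3.46-fold. Hipk4, Prkar2a, Tsks, Dusp13b and Tssk2 had log2 differences of 3.05, 3.04, 2.78, 2.49 and 2.19 without rats 1, 10 and 11. Nek9, a mitotic kinase, fell 2.99-fold, Cdkl2 2.77-fold, Cdk17 2.14-fold and Lmtk2, a kinase of endosomes, 2.11-fold.

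Channels, pumps and cyclic AMP enzymes of motility rose in 8 of 18 bright genes and fell in 2 (6 and 2 under all 5 scalings; median 0.93). Atp1a4, the sodium pump subunit of sperm, rose 3.74-fold, from 11.83 to 13.73 (a log2 difference of 1.90, and of 2.60 without rats 1, 10 and 11). Adcy10, the soluble adenylyl cyclase, rose 2.96-fold, Car2, a carbonic anhydrase, 3.71-fold, Plcd4, a phospholipase C of the acrosome reaction, 3.70-fold and Cftr, a chloride channel, 3.32-fold. Pde8a, which breaks down cyclic AMP, fell 2.67-fold. Calm2, a gene for calmodulin, fell 2.63-fold, from 14.35 to 12.95. Catsper2 and Trpc2, both calcium channel genes, were called higher, not under all 5 scalings.

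Energy genes went both ways. Of 38 bright genes 10 rose and 11 fell, 9 and 10 of them under all 5 scalings (median -0.21). Ldhb, the heart-type lactate dehydrogenase, ranged from 11.79 to 12.69 (median 12.02) in pachytene spermatocytes and 9.27 to 9.81 (median 9.32) in round spermatids, a fall of 6.54-fold without overlap (limma, adjusted p = 2.34e-06). Pdhb, a subunit of pyruvate dehydrogenase, fell 5.43-fold, Slc2a3, a glucose carrier, 4.96-fold, and Slc16a1, a lactate carrier, 5.51-fold. Akr1b1, aldose reductase, fell 4.78-fold, and Slc25a4 and Slc25a5, carriers of ADP and ATP, 3.25-fold and 3.96-fold. In the pachytene fractions Ldhb stood at 12.69 in rat 1 and 12.41 in rat 10, and at 11.79 to 12.07 in the others. Akr1b1, Slc16a1, Slc25a4 and Slc25a5 were also highest in rats 1 and 10. So was the mean of the Sertoli cell markers (10.36 and 10.19). Pdhb and Slc2a3 were instead lowest in rat 1. The part of other cells in these falls was not tested.

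Gapdhs, the sperm form of its glycolytic enzyme, rose 2.21-fold, from 13.46 to 14.61. Both forms of phosphoglycerate mutase were called, in opposite directions: Pgam1 fell 3.15-fold (log2 difference -1.66 ± 0.13, SE) and Pgam2 rose 2.24-fold (1.16 ± 0.11). Gpd2, a mitochondrial glycerophosphate dehydrogenase, rose 4.92-fold, Gpi, glucose phosphate isomerase, 3.81-fold, Hk1, hexokinase, 2.25-fold and Glul, glutamine synthetase, 2.48-fold. Pdk1, which shuts off pyruvate dehydrogenase, rose at least 4.36-fold from a level under the floor. Slc16a7, a second lactate carrier, rose 2.05-fold (log2 difference 1.04 ± 0.33, SE; limma, adjusted p = 0.0218). Its pachytene levels spread from 11.39 to 13.77, the fractions overlapped, and 5 of 6 rats had the higher level in round spermatids. Slc16a7 and Gpd2 had log2 differences of 1.79 and 2.97 without rats 1, 10 and 11.

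Factors that store, process or translate mRNA fell in 16 of 57 bright genes and rose in 7 (16 and 3 under all 5 scalings; median -0.42). Khdrbs1, the splicing factor Sam68, which spermatids need, fell 6.72-fold, Pcbp1 6.08-fold, Ddx6, a helicase of stored mRNA, 6.08-fold and Paip1, a partner of the poly(A)-binding protein, 5.82-fold. Elavl1, the stabilising protein HuR, fell 3.80-fold, Khdrbs3 4.15-fold and Tsnax, a partner of translin, 3.84-fold. Ddx6 had a log2 difference of -2.60, and of -3.29 without rats 1, 10 and 11. Papolb, the poly(A) polymerase of spermatids, rose 2.39-fold, Eif4g1, the scaffold of the cap complex, 2.72-fold and Clp1, of 3' end cleavage, 2.61-fold. Tent2, a cytoplasmic poly(A) polymerase, was called higher (1.53), not under all 5 scalings.

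Ubiquitin genes rose in 18 of 54 bright members and fell in 5 (14 and 5 under all 5 scalings; median 0.38; without rats 1, 10 and 11, 23 and 5). Fbxo39, a substrate receptor of SCF ligases, ranged from 9.89 to 12.50 (median 10.71) in pachytene spermatocytes and 12.98 to 13.70 (median 13.29) in round spermatids, a rise of 5.33-fold. Otub2, a deubiquitinase, rose 3.81-fold, Asb9 and Spsb1, substrate receptors, 3.58-fold and 3.41-fold, Ube2n, which makes chains linked through lysine 63, 3.54-fold and Rnf4, a ligase for SUMO-tagged proteins, 3.15-fold. Besides Cul4a, the falls were of Rnf6 (at least 3.25-fold), Siah1 (3.80-fold) and Rnf32 (3.15-fold), all ligases, and of Ube2d2 (2.23-fold), a conjugase. Fbxo39, Otub2 and Spsb1 had log2 differences of 3.13, 2.66 and 2.44 without rats 1, 10 and 11.

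The X chromosome differed from the autosomes in how many of its genes were bright and in the direction of change. Of 447 measured X genes 118 (26.4%) were bright, against 46.6% of autosomal genes (40.3% to 53.4% on the 20 autosomes). In pachytene spermatocytes 16.1% of X genes reached the bright level and in round spermatids 19.9%, against 39.3% and 39.5% of autosomal genes. Of the 118, 60 (50.8%) were called higher in round spermatids, against 20.6% on autosomes, where no single one exceeded 25.3%. Lower were 30 (25.4%), against 18.6%, with 13.4% to 25.8% on single autosomes. The median difference of bright X genes was 1.01, against 0.03 on autosomes. Genes bright in only 1 fraction enter these shares through the fraction where they are high, which raises the share called. Over all measured genes, 60 of 447 X genes and 1317 of 13747 autosomal genes were called higher. Called lower were 30 of 447 and 1191 of 13747, so there the X had no excess of falls.

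This held in part under the other scalings. Under all 5, 28 X genes (23.7%) were called higher, against 9.88% of autosomal ones, and 30 lower, against 17.7%. On the deposited scale 33 of the 118 were higher (28.0%) and 41 lower (34.7%), against 10.3% and 34.9% on autosomes, and the medians were 0.45 and -0.49. Without rats 1, 10 and 11, 65 X genes were higher and 25 lower. Among these bright genes the share called higher was above that of autosomes under each scaling, and the share called lower was not. They were chosen as bright on the main scale, so the filter named above enters all these shares. Over all measured genes, 28 of 447 X genes and 633 of 13747 autosomal genes were called higher under all 5 scalings. Called lower under all 5 were 30 of 447 and 1135 of 13747. For each other scaling alone, calls over all measured genes were not counted.

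**Figure D4:**
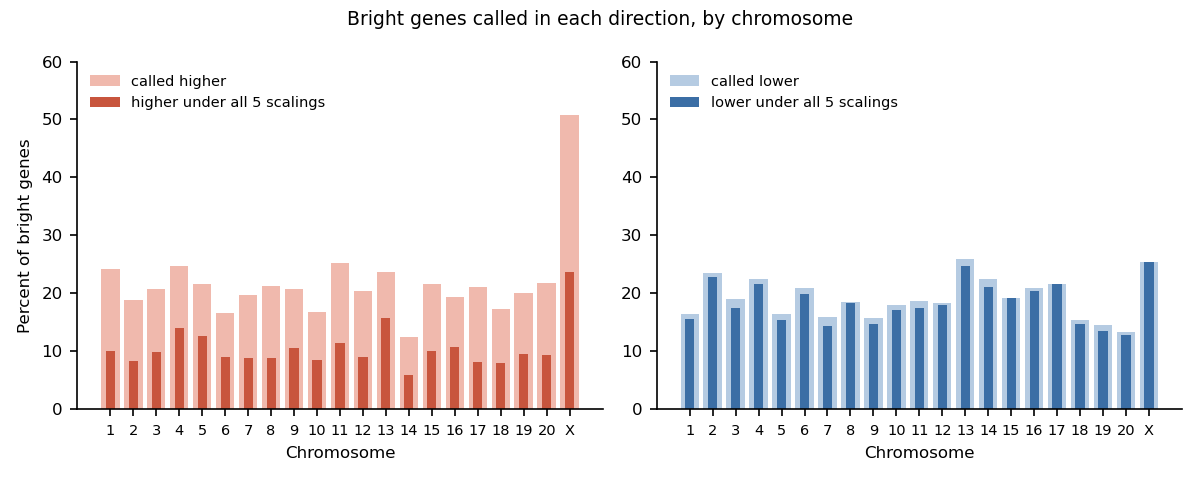
Percent of bright genes on each chromosome (horizontal axis) called higher (left panel) and lower (right panel) in round spermatids; pale bars are calls under the main scaling and dark bars calls under all 5 scalings. The X chromosome stands at 50.8% called higher, and the 20 autosomes between 12.4% and 25.3%.

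Among X genes Tex13c3 ranged from 7.51 to 8.76 (median 7.68) in pachytene spermatocytes and 9.98 to 11.02 (median 10.27) in round spermatids. It rose 5.41-fold without overlap (log2 difference 2.44 ± 0.16, SE; limma, adjusted p = 1.01e-05). H2ap, a histone-like gene of the testis, rose 5.23-fold, Asb12 5.18-fold, Sh3kbp1, an adaptor of endocytosis, 5.18-fold, Nup62cl, related to a nucleoporin, 4.66-fold, Ribc1, a tubulin-associated protein of the axoneme, 4.45-fold, Rhoxl 4.35-fold and Ctps2, a CTP synthase, 4.31-fold. Falls on the X were led by Igsf1, a membrane glycoprotein, with 8.57-fold. Dmrtc1a fell 7.78-fold, Rbm3, a cold-induced RNA-binding protein, 6.95-fold, Gpc4, a glypican, 6.34-fold, Zcchc18 at least 5.99-fold and Magec2 at least 4.97-fold. Ubqln2, a ubiquilin, had a log2 difference of -2.58 ± 0.15 (SE). In the pachytene fractions Igsf1 stood at 12.38 in rat 1 and 11.97 in rat 10, and at 11.32 to 11.63 in the others, and Gpc4 at 12.18 and 11.74, and at 11.08 to 11.41 in the others. The mean of the Sertoli cell markers was 10.36 and 10.19 in those 2 fractions and 9.84 to 9.97 in the others. Of the 30 X genes called lower 1 was on the Sertoli cell list, and the part of other cells in these falls was not tested. Nup62cl and Ribc1 had log2 differences of 2.85 and 2.80 without rats 1, 10 and 11.

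Several X genes have autosomal copies, made by reverse transcription and used in the testis while the X is silent. Utp14a and Ubl4a, X genes with such copies, rose 4.23-fold and 3.47-fold; Utp14a ranged from 8.60 to 9.88 (median 9.01) in pachytene spermatocytes and 11.13 to 11.28 (median 11.23) in round spermatids. Prps1 rose 2.76-fold under the main scaling but not under all 5. Cstf2t, the autosomal copy of Cstf2 and part of the machinery that adds poly(A) tails, fell 4.42-fold, from 10.89 to 8.75, while its X parent was dim in both fractions (8.09 and 8.12). Pdha2, the copy of Pdha1, had a difference of -0.65 ± 0.08 (SE), Fam50b -0.43 ± 0.09 and Cetn1, of centrioles, -0.14 ± 0.05, and none was called. Their X parents Pdha1, Fam50a and Cetn2 were below the bright level in both fractions. Mcts2, a copy of a translation factor, had 0.99 ± 0.08 and was not called either. Pgk1, an X parent bright in both fractions (9.73 and 9.13), had -0.60 ± 0.15 (SE), and -1.40 on the deposited scale, and was not called. Rpl39l1, the copy of Rpl39, had -0.10 ± 0.04 and was not called. The X parents Rpl39, Rbmx and Gk were below the bright level in both fractions.

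Different probe sets of 1 gene sometimes went opposite ways. Of 1025 genes with at least 2 bright probe sets, 47 (4.59%) had probe sets called in opposite directions, 19 of them (1.85%) under all 5 scalings and 44 without rats 1, 10 and 11. Eif4e, the protein that binds the mRNA cap, had 1 probe set that rose from 9.97 ± 0.62 to 12.74 ± 0.28 (SD, n = 6) and another that fell from 12.21 ± 0.22 to 11.20 ± 0.13. The differences were 2.78 (SE 0.20) and -1.01 (SE 0.04). Eif4h, which helps to unwind mRNA for translation, had differences of 2.40 (SE 0.22) and -1.60 (SE 0.10). In Ppp1r2, an inhibitor of protein phosphatase 1, they were 1.51 (SE 0.17) and -2.65 (SE 0.09).

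Ltn1, a ligase of ribosome quality control, had 2.64 (SE 0.24) and -1.23 (SE 0.10), Fam107b 2.07 (SE 0.16) and -1.94 (SE 0.12), Gramd2b 1.78 (SE 0.21) and -2.25 (SE 0.11) and Cadm1, an adhesion protein of spermatocytes, 1.58 (SE 0.17) and -2.08 (SE 0.12). Socs7, Zng1a and Tmem161b were also among the 10 widest gaps, but not under all 5 scalings. For these genes the single value taken per gene depends on the probe set, and what the paired probe sets target was not tested. On the deposited scale the 3' minus 5' control signal of GAPDH was -0.01 to 0.13 in pachytene and 0.45 to 0.67 in round spermatid arrays. For beta-actin it was 1.01 to 1.43 and 0.86 to 1.24, so those ranges overlapped. The part of such a difference between the mRNA ends in the opposite calls and in the folds was not tested.

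**Figure D5:**
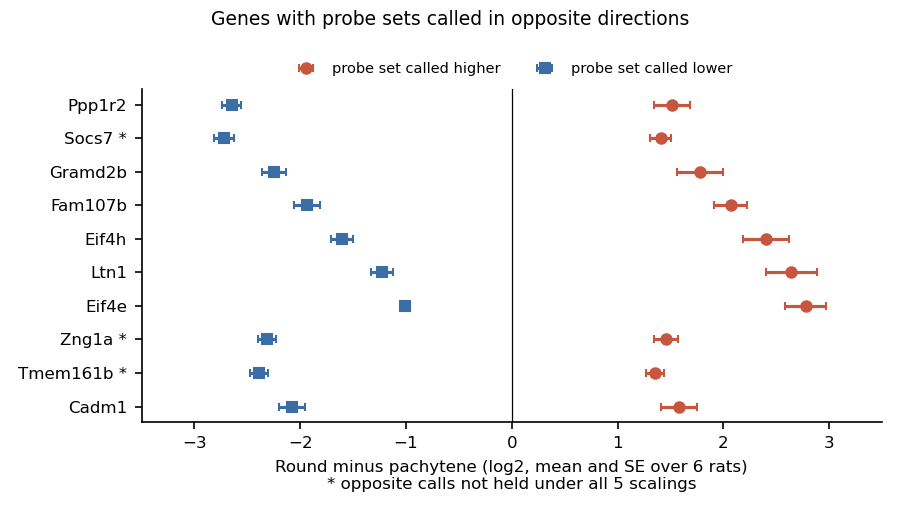
Round minus pachytene difference (log2, horizontal axis) of both probe sets of the 10 genes with the widest opposite calls; points are means over 6 rats and bars the standard error of the fit. In Eif4e the probe sets stood at 2.78 and -1.01; asterisks mark the genes whose opposite calls did not hold under all 5 scalings.

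Of 1391 genes at a level of 11 or more in both fractions, 483 had a 95% interval of the difference within 0.5 of 0, and 408 of them stayed under 0.5 under all 5 scalings. Among the 8 narrowest intervals were -0.09 to 0.05 for Polr2i, an RNA polymerase II subunit at a level of 11.51, and -0.38 to -0.24 for Cenpv, of centromeres. Elob, Gstm5, Cox6b2 and Crisp2 also had narrow intervals, but their levels lay at 13.96 or above, close to the top ranks named for Prm1 and Tnp1, so a narrow interval is not read as an equal level there. Gpx4, the selenoenzyme of the sperm midpiece, lay there too (14.66 and 14.91). Its difference of 0.24 ± 0.03 (SE) was positive in 6 of 6 rats with no overlap (limma, adjusted p = 1.59e-04) and was 0.55 with median centring.

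Markers of cells other than the labelled ones differed between the fractions too. Of 26 measured Sertoli cell markers 17 were bright, and 16 of these were called lower in round spermatids, all under all 5 scalings (median -2.02). Clu, the secreted protein clusterin, ranged from 13.74 to 14.48 (median 13.97) in pachytene spermatocytes and 10.19 to 11.58 (median 11.09) in round spermatids. Aard, Cst12 and Cldn11, the claudin of the Sertoli cell barrier, fell 9.32-fold, 9.77-fold and 8.34-fold. The mean of the list was 9.84 to 10.36 in pachytene and 8.30 to 8.64 in round spermatid fractions, and its part in the falls above was not tested.

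Of 25 markers of macrophages and blood 9 were bright, 5 rose and 0 fell, 3 of the rises under all 5 scalings: Adgre1 (4.64-fold), Ctss (3.32-fold) and Aif1 (2.91-fold). C1qc lay at 7.52 to 7.70 in pachytene and 8.63 to 9.55 in round spermatid fractions, and Lyz2 at 8.06 to 8.22 and 9.15 to 9.86. Of the 25 markers 6 were at the floor in both fractions: Cd14, RT1-Da, Ptprc, Cd3e, Cd4 and Cd8a. The list's mean was 7.94 to 8.14 in pachytene and 8.48 to 8.79 in round spermatid fractions, and the part of such cells in the rises was not tested. Adgre1 and Aif1 had log2 differences of 2.86 and 2.29 without rats 1, 10 and 11. Of 19 markers of peritubular cells and vessels 5 were bright and 3 were called higher, with Actg2 (5.36-fold) under all 5 scalings, and Pecam1, Kdr and Tek at the floor. Of 15 Leydig cell markers 4 were bright, and Ptgds fell 3.64-fold; Lhcgr and Hsd17b3 were at the floor. Of 17 spermatogonial markers 4 were bright; Gfra1 rose 5.61-fold and Id4 fell 3.27-fold, and Kit was at the floor. Of the elongating spermatid markers 7 of 17 bright ones rose, 11 without rats 1, 10 and 11, and 0 fell.

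Early stress genes, which respond within minutes to cell handling, went both ways. Fos, Ier3 and Jun were called lower, by -1.17, -1.06 and -1.03, under all 5 scalings with all rats, but without rat 1 the count of members called lower was 0, and without rats 1, 10 and 11 it was 2. Hspb1, Hspa1a and Dusp1 were called higher, not under all 5 scalings. The mean of the 20 measured genes was 8.61 to 9.53 in pachytene and 8.65 to 9.29 in round spermatid fractions, so the ranges overlapped.

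The change at 4 months was compared with that at 18 months in a model of all 24 arrays, with another offset (90.3) and a block for each of the 12 rats. Of 31042 probe sets 84 (0.271%) had a smaller rise or a larger fall at 4 months, and 1 (0.00322%) the reverse; by adjusted p alone 3796 (12.2%) passed. Of the 85, 63 were higher in round than in pachytene spermatocytes at 4 months and 66 at 18 months. Spam1 rose by 1.56 at 4 months and by 2.88 at 18 months, a difference of -1.32 (SE 0.33; limma, adjusted p = 0.0252). Slc16a7 rose by 1.02 and 2.54 (difference -1.51, SE 0.36; adjusted p = 0.0209). Bbx, a HMG-box protein, Shcbp1, Ccdc81 and Lratd1 had differences of -1.30, -1.30, -1.29 and -1.32, and Morf4l2, of chromatin complexes, -1.32. The reverse case was Asap3, with 0.28 at 4 months and -0.78 at 18 months.

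Most of these calls were not made without 3 of the young rats. Spam1 lay at 10.68 to 12.65 in the pachytene arrays at 4 months and at 10.08 to 10.97 at 18 months, and round spermatid markers at 10.98 to 12.31 and at 10.74 to 11.19 in the same arrays. Without young rats 1, 10 and 11 the counts were 13 and 0, and 9 of the 85 calls were made again; without rat 1 alone 21 were. Of the 9 genes named, Vim, the intermediate filament of Sertoli cells, was called again: it had differences of -1.84 at 4 months and -0.52 at 18 months, which differed by -1.32 (SE 0.21; adjusted p = 0.0083), and -1.25 without those rats. The mean of the Sertoli cell markers was 9.85 to 10.38 in pachytene fractions at 4 months and 9.23 to 9.50 at 18 months, and its part in the difference of Vim was not tested. On the deposited scale 695 probe sets had the smaller rise or larger fall and 0 the reverse.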

How the data were processed

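The authors deposited 1 log2 signal per probe set and array; which program made them was not given in the sources used here, and per the labels' protocols biotinylated cRNA was hybridised to Affymetrix arrays. From these, 57 control probe sets were left out of the tests, and 20826 of 31042 probe sets carry 1 gene symbol in the platform annotation. Pachytene values received a linear offset (80), arrays were quantile normalized, and limma 3.58.1 (R 4.3.3; lmFit, eBayes) was fitted with the rat as a block, with Benjamini-Hochberg adjustment over all probe sets. The fit was tested on simulated data. The members and gene lists were chosen with earlier results of these data known. Named were the 15 largest differences each way and up to 8 called members per list and direction. Chromatin and X-copy genes could be named whether called or not. Further named were the 10 widest opposite probe sets, 8 X genes each way and the 8 narrowest intervals. Up to 8 age differences each way were named too, and exceptions are stated where they occur. No arrays were identical (0 pairs). Arrays of the same number correlated at -0.08 to 0.38 after removal of group means, and 3 of 6 rats had their own partner as closest array. The call under all 5 scalings, and the list, chromosome, fold and gene values without rats 1, 10 and 11, were added after seeing the data. Promoters are RefSeq GRCr8.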

Additional observations from a re-analysis of the deposited data

Results flagged for a closer look

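Single arrays or single rats stood far from the others in 26 measures, by the gap of the extreme value to its neighbour over the range of 6. In 20 of them the extreme value was that of rat 1. Most of these measures were round minus pachytene differences, so they do not tell which array of the rat stood apart. Such a gap arises by chance in some groups too, and 311 named genes were tested. The pachytene array of rat 1 had a mean correlation of 0.974 with its group and a mean of 11.84 for the pachytene markers, and the round spermatid array of rat 10 a mean correlation of 0.987. The median difference of the intraflagellar transport list, over all its measured members, was 0.0257 in rat 1.

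In rat 1 the difference was 1.36 for Klc3, -3.31 for Tgfa, 0.25 for Dusp1, -1.19 for Exo1, -0.63 for Tdrd12, -1.65 for Cdc20 and -0.66 for Prc1. It was -1.23 for Zmynd10, -0.98 for Cdkl2, -0.89 for Pde8a, 0.81 for Gpi, -0.34 for Cstf2, -0.18 for Nap1l4, 0.17 for Asf1b and -1.30 for Tmpo. The higher probe set of Gramd2b stood at 0.62 and that of Ltn1 at 1.27. In rat 13 the difference was -1.48 for Abca5, -0.62 for Pds5a, -1.74 for Paip1 and -1.23 for Iqcb1, and in rat 2 it was 0.0173 for Cox6b2.

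The change differed between ages by the interaction term of limma in 9 named genes. The difference, 4 minus 18 months, was 1.07 for Asap3, -1.51 for Slc16a7, -1.32 for Vim, -1.32 for Lratd1, -1.32 for Morf4l2, -1.32 for Spam1, -1.30 for Shcbp1, -1.30 for Bbx and -1.29 for Ccdc81. Of these Vim was called again without young rats 1, 10 and 11.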

How the results depend on the processing

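The count of probe sets called higher (1899) was 872 with the offset and the deposited scale, 1124 with median centring, 834 with hybridization control centring, 829 under all 5 scalings together and 2924 at 1.5-fold; the count called lower (1865) was 4010, 3363, 4142, 1767 and 2875, and 1163 with a brightness threshold of 10. Quantile normalization maps every array to 1 distribution, which the other scalings do not. Leaving out 1 rat gave 1844 to 1946 higher and 1812 to 1939 lower. No block, and the rat as a random block, gave 1899 and 1865 again, so the replicate block changed no count; for the difference between ages no block gave 1 and 85, against 1 and 84. For that difference, the probe sets with the larger rise at 4 months numbered 7 without the offset, 0 on the deposited scale, 0 without young rats 1, 10 and 11, and 0 to 17 when 1 young rat was left out. Those with the smaller rise numbered 695 on the deposited scale, 13 without those rats and 22 to 195 when 1 was left out; the cause was not tested. Of all settings run on named genes, 6005 kept direction and call, 160 lost the call, 49 gained it and 0 reversed. Signals near the floor limit folds: 40 higher and 126 lower calls had a lower level under 7.5.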
